A study of Mus musculus with 9 samples.

Results

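The SOX, T-box, PAX, GATA and non-HOX homeobox transcription factors were examined in undifferentiated HC11 cells, a line derived from the mouse mammary gland that serves as a model of milk-producing differentiation. Members were matched by gene symbol, as every numbered *Sox*, *Tbx*, *Gata*, *Pax*, *Lhx*, *Nkx*, *Msx*, *Dlx*, *Irx*, *Pitx*, *Meis* and *Pbx* gene and every numbered sine oculis homeobox gene, leaving out *Sox9*, *Sox10* and *Gata3*. The members, and the other gene lists used below, were chosen with earlier results of these data known. This gave 97 members among the 55228 genes of the count table. Poly-A-selected RNA had been sequenced from 9 cultures, 3 each of *WT*, *KD1* and *KD2*.

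*WT* is the parental HC11 population, which had not been cloned. *KD1* and *KD2* are lines in which *Vangl2*, a membrane protein of planar cell polarity, had been targeted by CRISPR/Cas9 with a repair template that carries stop codons, 1 guide for each line. Each line had been grown from a single colony and kept on loss or reduction of the protein. By the paper's blots, *KD1* had little or no VANGL2, while *KD2* kept a much reduced amount. The sample labels call both lines knockouts, and the paper mostly calls them knockdowns. Every difference between a line and *WT* is also a difference between 1 clone and a population, so the clone and the edit cannot be told apart. All 9 cultures shared the same medium, with 10% serum, 5 µg/mL insulin and 10 ng/mL EGF, and no treatment. The labels give replicate numbers only, so the p-values measure the spread between these cultures, which may be technical.

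Depth was 19231428 to 28360592 counts per culture. The third *KD2* culture stood apart from the other two of its line, with a chi-square per degree of freedom of 17.4 and 22.1 against 1.74 between those, and the first *WT* culture did so less strongly, with 13.1 and 10.7 against 3.38. *Vangl2* RNA was 3.84 ± 0.42 CPM (counts scaled to an adjusted library size of 1000000) in *WT*, 2.48 ± 0.51 in *KD1* and 3.99 ± 0.40 in *KD2* (SD, n = 3 each). The lines had been chosen by protein, so the transcript does not check the labels. Of the epithelial markers, 4 of 5 luminal and 3 of 3 basal ones were present in every line, and *Krt19* was at 0 throughout.

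These families act as selectors of tissue and cell identity. SOX proteins bend DNA through a high-mobility-group box, T-box and PAX proteins bind through domains of their own, and the DLX, MSX, IRX, sine oculis, PITX, LHX, MEIS and PBX proteins carry a homeodomain. Some are expressed early in the mammary placode, and some factors of these families later separate luminal from basal cells. Several repress transcription or work only with a partner, such as EYA for the sine oculis homologues or the TLE corepressors.

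RefSeq promoter windows (GRCm38.p6, 250 bases before to 50 after a start) were at hand for 69 of the 97 members. Upstream sequence is shown for 4 members on which the comparisons below turn, and only as far as neither RefSeq nor GENCODE places it in a transcript. *Sox13* fell in both lines (minus strand, chr1:133424378-133424462) and *Pbx4* rose in both (plus strand, chr8:69832374-69832490). *Sox8* moved in opposite directions (minus strand, chr17:25570687-25570936), and *Meis1* rose in *KD1* (minus strand, chr11:19018986-19019219). The capitals mark CG pairs, the site of DNA methylation.
Sox13: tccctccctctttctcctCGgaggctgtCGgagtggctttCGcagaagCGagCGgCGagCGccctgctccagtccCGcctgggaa
Pbx4: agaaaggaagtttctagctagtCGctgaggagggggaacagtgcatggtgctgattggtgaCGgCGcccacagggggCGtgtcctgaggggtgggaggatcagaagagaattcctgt
Sox8: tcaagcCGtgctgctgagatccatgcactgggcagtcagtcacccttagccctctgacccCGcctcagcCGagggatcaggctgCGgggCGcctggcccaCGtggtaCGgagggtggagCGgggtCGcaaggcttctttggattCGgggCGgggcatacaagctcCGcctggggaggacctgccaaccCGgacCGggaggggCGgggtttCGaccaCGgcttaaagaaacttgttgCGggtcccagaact
Meis1: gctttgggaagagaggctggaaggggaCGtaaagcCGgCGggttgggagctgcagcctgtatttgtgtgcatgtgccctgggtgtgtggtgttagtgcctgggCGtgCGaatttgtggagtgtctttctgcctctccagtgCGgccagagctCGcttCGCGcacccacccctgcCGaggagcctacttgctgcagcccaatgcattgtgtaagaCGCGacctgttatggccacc

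Windows of the tested members were rich in CG pairs, with a median of 15.5 over 30 windows of 22 members against 7 over all 32851 windows. The whole window of *Sox13* held 40, the highest among the tested members. Windows of members that were not tested held from 1 (*Tbx22*) to 47 (*Sox12*), so richness in CG pairs was not shown to be particular to tested members. Searched on both strands, the window of *Sox13* held 1 STAT palindrome (TTCNNNGAA), a motif present in 8.3% of all windows, and the match lies in the bases shown. No match to the SOX core AACAAT (10.7% of all windows), the TALE core TGACAG (19.2%) or the TATA box TATAAA (13.6%) lay in the windows of these 4 genes. The letters alone do not show that any factor binds there.

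Most members were silent or nearly so. There were 25 members at 0 counts in all 9 cultures, among them *Sox2*, *Sox17*, *Tbx4*, *Tbx5*, *Lhx2*, *Nkx2-1*, *Pax9* and *Gata6*, and another 25 had at most 3 counts in every culture, the floor used for detection. A count of 0 limits a level only to that floor, between 0.0998 and 0.154 CPM per culture. A further 13 rose above the floor in at least 1 culture without passing the expression filter of edgeR (about 0.392 CPM in 3 or more cultures). The remaining 34 were tested. All 3 *Meis* and all 4 *Pbx* genes were tested, with 4 of 6 *Irx*, 4 of 6 *Dlx*, 7 of 17 *Sox*, 3 of 6 sine oculis, 3 of 13 *Tbx* and 2 of 9 *Pax* genes, and none of the 14 *Nkx* or 5 *Gata* genes.

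Per kilobase of exon, which allows levels of different genes to be compared, *Sox4* was the most abundant member, at 75.0 ± 5.48 CPM per kb in *WT* (SD, n = 3). *Sox4*, a SOXC factor of progenitors, was followed, among others, by *Irx1* at 40.4 ± 3.24, *Irx2* at 36.8 ± 2.17, *Pitx1* at 26.2 ± 2.53 and *Irx5* at 16.4 ± 1.09 in *WT*. The *WT* cultures overlapped between *Irx1* and *Irx2* but not between the other neighbours among the 5 named here. Most other members were under 8 CPM per kb in *WT*. Of the exon bases of *Sox4*, 54.6% are shared with *Gm26735* on the other strand, and use of strand in counting was not stated, so reads of these genes cannot be told apart. The summed level of all members varied little, from 1204 to 1373 CPM per culture, and 45 to 55 members had a count.

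**Figure D1:**
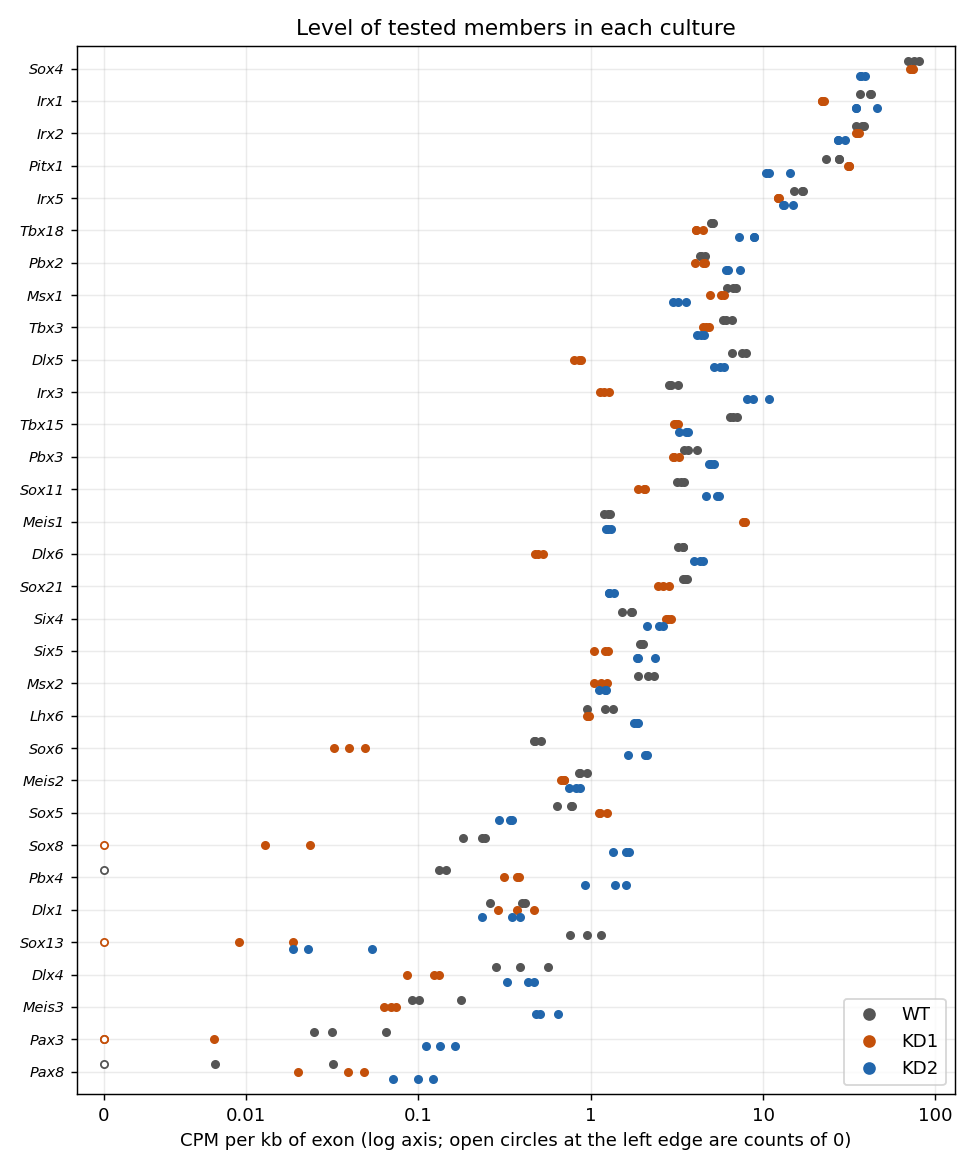
Level of tested members in each of the 9 cultures, in CPM per kb of exon on a log axis, with grey, orange and blue points for *WT*, *KD1* and *KD2* and open circles at the left edge for counts of 0. *Sox4*, *Irx1*, *Irx2* and *Pitx1* lead, while *Sox13*, *Sox8*, *Sox6*, *Pax3* and *Pbx4* spread widely over the 3 groups.

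Each line was compared with *WT* to ask which members differed when *Vangl2* had been targeted. A member was called where edgeR's quasi-likelihood test gave an adjusted p under 0.05 (Benjamini-Hochberg, over 15253 genes) and the log2 fold change passed 1 in either direction. In *KD1*, 2 members rose (*Meis1*, *Pbx4*) where 9.34% of all genes did, and 9 fell (*Dlx4*, *Dlx5*, *Dlx6*, *Irx3*, *Pax3*, *Sox6*, *Sox8*, *Sox13*, *Tbx15*) where 7.49% of all genes did. Either way, 16.8% of all genes were called. The median log2 fold change of the 34 was -0.39 against -0.03 over all genes. In *KD2*, 7 rose (*Irx3*, *Meis3*, *Pax3*, *Pax8*, *Pbx4*, *Sox6*, *Sox8*; background 14.5%) and 5 fell (*Msx1*, *Pitx1*, *Sox5*, *Sox13*, *Sox21*; background 6.71%), against 21.2% either way, with a median of 0.02 against 0.01.

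Compared directly, *KD2* was higher than *KD1* in 11 members (background 14.7%) and lower in 4 (background 8.58%, and 23.3% either way), with a median of 0.63 against 0.02. Only *Pbx4* was called higher in both lines (3.95% of all genes) and only *Sox13* lower in both (1.99%). *Irx3*, *Pax3*, *Sox6* and *Sox8*, 4 of the 34, fell in *KD1* and rose in *KD2* (1.72% of all genes), and none did the reverse (0.977%), so 4 moved in opposite directions where 2.7% of all genes did. Both comparisons use the same *WT* cultures. In all, 18 of the 34 were called at least once, where 33% of all genes were. *Meis3*, *Pax3*, *Pax8* and *Sox13* passed the filter through 1 group only, so the filter itself favoured a difference. *Dlx4*, *Pbx4* and *Sox8* had all cultures over the filter level in only 2 of the 3 groups, those where they were higher.

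Without the third *KD2* culture, the calls were 4 higher and 11 lower in *KD1*, 7 higher and 7 lower in *KD2*, and 4 in opposite directions. Between the lines they were 12 higher and 6 lower in *KD2*. The number shared by both lines was then 4 instead of 2, and the cause was not tested. Without the first *WT* culture, the calls were 4 higher and 10 lower in *KD1*, 7 higher and 7 lower in *KD2*, 3 shared by both lines and 4 in opposite directions. The share of all genes called was not computed for these fits.

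**Figure D2:**
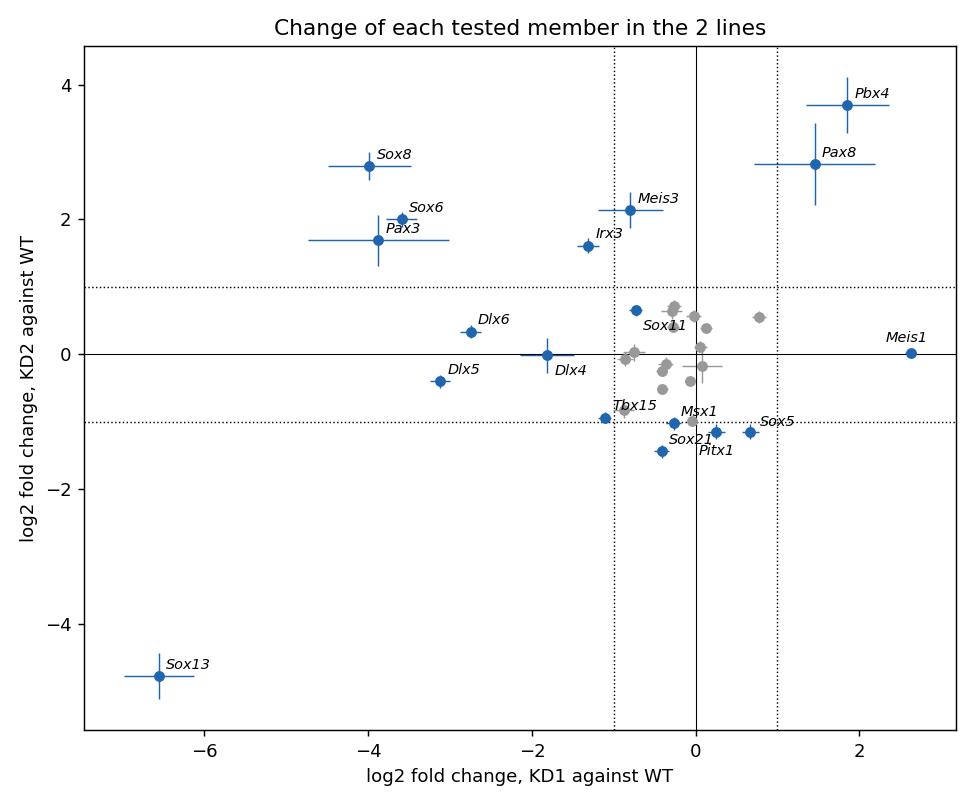
Log2 fold change of each of the 34 tested members in *KD1* (horizontal axis) and *KD2* (vertical axis) against the shared *WT* cultures, with standard errors; dotted lines mark a log2 fold change of 1 in either direction, and blue points are members called in at least 1 of the 3 comparisons. *Sox13* lies far down in both lines, *Pbx4* up in both, and *Sox8*, *Sox6*, *Pax3* and *Irx3* lie at the upper left.

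The SOX family held the widest changes. *Sox5*, *Sox6* and *Sox13* form the SOXD group, which lacks a transactivation domain of its own and modulates the action of other SOX proteins. *Sox13* (chromosome 1, 133382303 to 133424377) was at 3.28, 4.96 and 4.10 CPM in *WT*, at 0, 0.0393 and 0.0806 in *KD1*, and at 0.0808, 0.233 and 0.0983 in *KD2*. The *WT* cultures lay far above every culture of either line. With 272 counts in *WT* and 3 in *KD1*, *Sox13* was 108-fold lower in *KD1* (95% exact counting interval 36.5 to 526), and the fitted difference in *KD2* was 27.4-fold (log2 fold change -4.78, SE 0.34, adjusted p = 3.2e-08 by edgeR's quasi-likelihood test, and a log2 fold change of -5.46 without the second *KD2* culture). Such intervals are taken from counts pooled over the cultures of a group. They cover counting error only and leave out the spread between cultures, and the reads carry no molecular identifiers. The difference between the lines, at 11 against 3 counts, was not called (adjusted p = 0.076 by the same edgeR test).

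*Sox6* (chromosome 7, 115470872 to 116038796) was at 7.01, 7.59 and 6.98 CPM in *WT*, 0.479, 0.589 and 0.725 in *KD1*, and 31.4, 30.7 and 24.3 in *KD2*. The groups did not overlap: *KD1* lay below *WT* and *KD2* above it. The level fell 12.02-fold in *KD1* (log2 fold change -3.59, SE 0.19, adjusted p = 1.3e-09) and rose 4.00-fold in *KD2* (2.00, SE 0.11, adjusted p = 2.9e-09), both by edgeR's quasi-likelihood test. No window of 50 bases in its exons occurred in another gene.

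*Sox5* (chromosome 6, 143828425 to 144781977) ran the other way. It stood at 9.16, 11.3 and 11.1 CPM in *WT*, 16.4, 17.9 and 16.0 in *KD1*, and 5.01, 4.92 and 4.23 in *KD2*. *KD2* lay wholly below *WT* and *KD1* wholly above it. The fall in *KD2* was 2.22-fold (log2 fold change -1.15, SE 0.11, adjusted p = 8.1e-07), and the value in *KD1* was 0.67 (SE 0.10, adjusted p = 5.8e-05), under the limit on the fold change. Against *KD1*, *Sox5* was 3.53-fold lower in *KD2* (adjusted p = 3.3e-09, edgeR's quasi-likelihood test as above). The antisense gene *Sox5os1* overlaps 9.25% of its exon bases.

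*Sox8*, a SOXE gene and a close relative of the excluded *Sox9*, lies on chromosome 17 from 25565892 to 25570686. It was at 0.563, 0.759 and 0.732 CPM in *WT*, 0.0738, 0 and 0.0403 in *KD1*, and 4.97, 5.19 and 4.23 in *KD2*, again without overlap. From 45 counts in *WT* and 3 in *KD1*, it was 17.8-fold lower in *KD1* (exact interval 5.73 to 89.7). It rose 6.93-fold in *KD2* (log2 fold change 2.79, SE 0.21, adjusted p = 5.7e-08 by edgeR's quasi-likelihood test), and the ratio of *KD2* to *KD1* was 125 (exact interval 42.5 to 610). The antisense gene *2810468N07Rik* overlaps 10.6% of the exon bases of *Sox8*, and reads of these genes cannot be told apart. *Sox9* itself, a luminal progenitor factor at 613 ± 24.4 CPM in *WT*, had log2 fold changes of -0.70 in *KD1* and -0.36 in *KD2*, both under the limit.

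Of the SOXC genes, *Sox4* was at 360 ± 26.3 CPM in *WT*, 349 ± 6.91 in *KD1* and 180 ± 6.36 in *KD2*. Its log2 fold change in *KD2* was -0.998 (SE 0.06, adjusted p = 7.6e-09, edgeR's quasi-likelihood test), just inside the limit on the fold change and so not called. *Sox11* was not called against *WT* in either line (-0.73 in *KD1* and 0.65 in *KD2*) but was 2.603-fold higher in *KD2* than in *KD1* (43.3 ± 3.85 against 16.7 ± 0.823 CPM, adjusted p = 2.4e-09). *Sox21*, a SOXB repressor, fell 2.72-fold in *KD2*, from 13.4 ± 0.275 to 4.94 ± 0.189 CPM (adjusted p = 1.4e-08). An overlapping gene on the other strand, *Gm4675*, covers 18.8% of its exon bases.

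**Figure D3:**
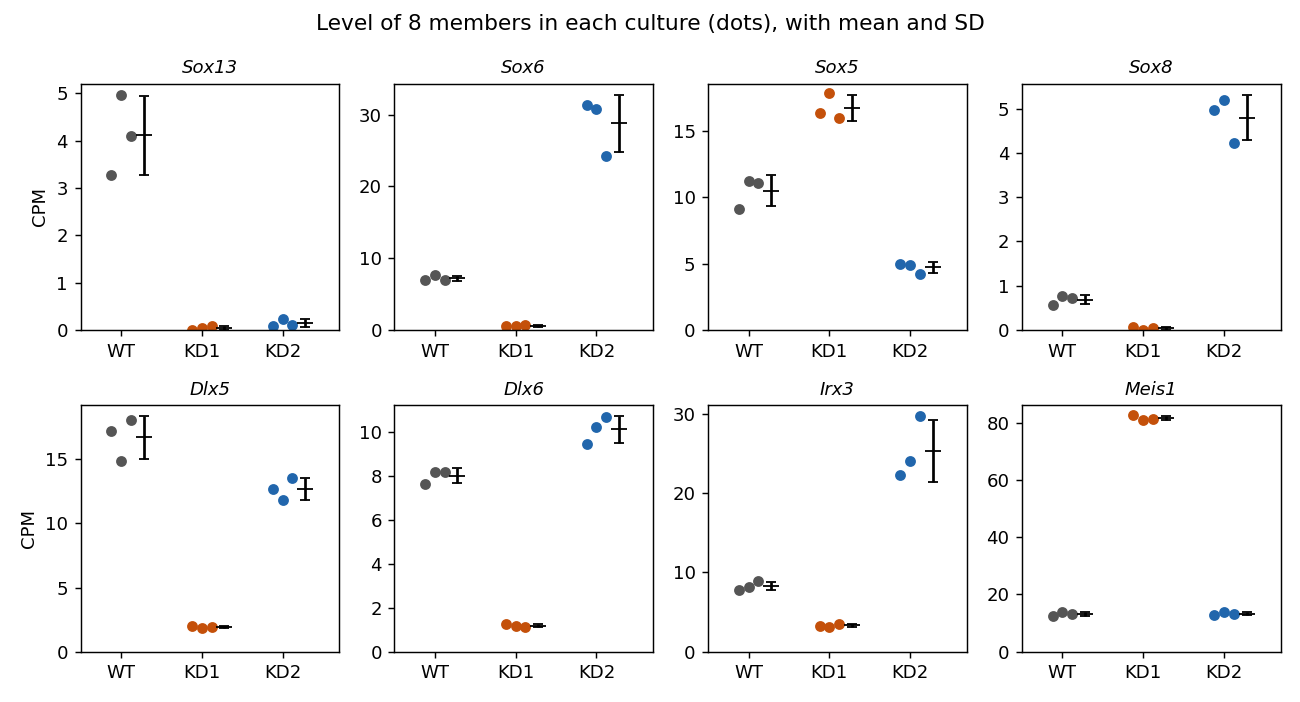
CPM of 8 members in each culture (dots) with the mean and SD of each group of 3 (bars); each panel has its own axis from 0. *Sox13* is near 0 in both lines, *Sox6*, *Sox8* and *Irx3* are below *WT* in *KD1* and above it in *KD2*, *Dlx5* and *Dlx6* are low in *KD1*, and *Meis1* is high in *KD1*.

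The *Dlx* genes, homologues of fly Distal-less that act in limb, jaw and epithelial appendages, were tested in 4 cases, of which 3 were called lower in *KD1* (7.49% of all genes) and none in *KD2* (6.71%). *Dlx5* (chromosome 6, 6877805 to 6882085) was at 17.2, 14.9 and 18.1 CPM in *WT*, 1.99, 1.81 and 1.93 in *KD1*, and 12.7, 11.8 and 13.5 in *KD2*. It fell 8.70-fold in *KD1* (log2 fold change -3.12, SE 0.12, adjusted p = 4.3e-11 by edgeR's quasi-likelihood test), and its value of -0.40 in *KD2* was under the limit. *Dlx6* (6863334 to 6868568) was at 7.62, 8.19 and 8.19 CPM in *WT*, 1.25, 1.18 and 1.13 in *KD1*, and 9.45, 10.2 and 10.7 in *KD2*. Every *KD1* culture was below every other culture for both genes. *Dlx6* fell 6.72-fold in *KD1* (-2.75, SE 0.13, adjusted p = 3.4e-10), with 0.33 in *KD2*.

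*Dlx5* and *Dlx6* are neighbours, 9.24 kb apart and transcribed from opposite strands. *Dlx4* (chromosome 11, 95140447 to 95146263), which belongs to another such pair, was at 1.28, 0.919 and 1.85 CPM in *WT*, 0.406, 0.432 and 0.282 in *KD1*, and 1.41, 1.06 and 1.52 in *KD2*. *KD1* lay below the rest, which overlapped. *Dlx4* fell 3.52-fold in *KD1* (log2 fold change -1.82, SE 0.33, adjusted p = 0.00029 by edgeR's quasi-likelihood test), and *KD2* was at -0.02. Its neighbour *Dlx3*, 15.2 kb away and too rare to be tested, had 1 count in each *WT* culture and 12, 6 and 4 in *KD1*, a ratio of 6.17 (exact interval 1.85 to 32.2) in the other direction. *Dlx1* was called in no comparison (0.08 in *KD1*, -0.17 in *KD2*), and its neighbour *Dlx2* was at 0.

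*Msx1* and *Msx2*, homeobox repressors needed for the mammary bud, had log2 fold changes below 0 in both lines. Of these 2 genes, 1 was called at least once, where 33% of all genes were. *Msx1* fell 2.04-fold in *KD2*, from 20.5 ± 1.16 to 10.1 ± 0.855 CPM (adjusted p = 4.7e-07 by edgeR's quasi-likelihood test), close to the limit on the fold change. *Msx2* had values of -0.88 in *KD1* and -0.83 in *KD2*, both past the p threshold (3.8e-05 and 5.0e-05) but not the limit.

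Among the 4 tested *Irx* genes, Iroquois-type factors that pattern tissue fields, only *Irx3* was called, where 33% of all genes were called at least once. *Irx3* (chromosome 8, 91798525 to 91802067) was at 7.83, 8.11 and 8.88 CPM in *WT*, 3.28, 3.14 and 3.55 in *KD1*, and 22.3, 24.0 and 29.7 in *KD2*, in 3 separate ranges. It fell 2.49-fold in *KD1* (log2 fold change -1.31, SE 0.14, adjusted p = 1.7e-06) and rose 3.05-fold in *KD2* (1.61, SE 0.11, adjusted p = 2.4e-08, edgeR's quasi-likelihood test). The more abundant *Irx1* was at 106 ± 8.49 CPM in *WT* and 58.2 ± 0.760 in *KD1*, a log2 difference of -0.86 that stayed under the limit. *Irx2* and *Irx5* were within 0.42 of *WT* on the log2 scale in both lines.

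MEIS and PBX proteins are TALE homeodomain factors that bind DNA together and with HOX proteins. *Meis1* (chromosome 11, 18879817 to 19018985) was at 12.6, 13.7 and 13.3 CPM in *WT*, 82.5, 81.0 and 81.3 in *KD1*, and 13.0, 13.7 and 13.3 in *KD2*. *KD1* stood alone and the other 2 groups overlapped. The rise in *KD1* was 6.18-fold (log2 fold change 2.63, SE 0.06, adjusted p = 4.1e-13 by edgeR's quasi-likelihood test), and *KD2* was at 0.01. Of its windows of 50 bases, 17% also occur in other genes. Its exons overlap *Gm37818* on the same strand (9.77% of exon bases) and *Gm16140* on the other (8.51%).

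*Pbx4* (chromosome 8, 69832491 to 69872292) was near the floor in *WT*, at 0, 0.320 and 0.293 CPM, and reached 0.701, 0.825 and 0.846 in *KD1* and 3.07, 2.06 and 3.54 in *KD2*. No group overlapped another. It rose 3.62-fold in *KD1* (log2 fold change 1.85, SE 0.51, adjusted p = 0.0068) and 13.0-fold in *KD2* (3.70, SE 0.42, adjusted p = 2.9e-06, edgeR's quasi-likelihood test). Per kilobase it stayed below its relatives: in *KD2*, *Pbx2* was at 6.58 ± 0.655 CPM per kb, *Pbx3* at 4.99 ± 0.161 and *Pbx4* at 1.30 ± 0.340. *Pbx2* and *Pbx3* were called in no comparison, with log2 fold changes of 0.56 and 0.41 in *KD2*. *Meis3* rose 4.41-fold in *KD2*, from 0.392 ± 0.149 to 1.74 ± 0.287 CPM (adjusted p = 8.8e-06), and *Meis2* was not called.

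*Pax3* and *Pax8*, paired-box genes known from neural crest and muscle and from thyroid and kidney, were both rare. *Pax3* had 3, 10 and 4 counts in *WT*, 0, 0 and 1 in *KD1*, and 25, 25 and 14 in *KD2*, so that *KD1* was 20.2-fold lower than *WT* (exact interval 3.17 to 845) and *KD2* 3.22-fold higher (adjusted p = 0.0013 by edgeR's quasi-likelihood test). *Pax8* had 0, 1 and 4 counts in *WT*, 8, 6 and 3 in *KD1*, and 15, 13 and 15 in *KD2*, where it was called 7.08-fold higher (adjusted p = 0.00093). Of the 5 *WT* counts of *Pax8*, 4 lie in the third culture, and without it the log2 fold change in *KD2* went from 2.82 to 4.42 and that in *KD1*, not called with all cultures, from 1.45 to 3.05, past the threshold. The *WT* and *KD1* ranges of *Pax8* overlapped. The summed level of 3 muscle markers was at most 0.146 CPM in *WT* and 0.0738 in *KD1* and 1.78 to 2.31 in *KD2*, nearly all of it *Des*, and its part in the counts of *Pax3* was not tested. The other 7 *Pax* genes did not pass the filter, and *Pax1* and *Pax9* were at 0.

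*Pitx1*, a factor of hindlimb and pituitary, was the only *Pitx* gene tested. It fell 2.22-fold in *KD2*, from 69.7 ± 6.71 to 31.6 ± 5.78 CPM (log2 fold change -1.15, SE 0.11, adjusted p = 3.9e-07, edgeR's quasi-likelihood test), and was at 83.2 ± 0.454 in *KD1*. *Six4*, which was not called, was at 18.0 ± 1.19 CPM in *WT*, 30.7 ± 1.06 in *KD1* and 26.2 ± 2.83 in *KD2*, log2 fold changes of 0.77 and 0.55, and *Six5* was at -0.75 and 0.03. *Lhx6*, a LIM-homeodomain factor of interneurons and the only tested *Lhx* gene, was not called, at -0.29 in *KD1* and 0.64 in *KD2*.

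Of the 3 T-box genes tested, 1 was called at least once, where 33% of all genes were. *Tbx15*, a mesenchymal and skeletal factor, fell 2.16-fold in *KD1*, from 25.3 ± 1.17 to 11.7 ± 0.268 CPM (adjusted p = 2.7e-08 by edgeR's quasi-likelihood test), and was at 13.1 ± 0.877 CPM in *KD2*, a log2 fold change of -0.94 that missed the limit. The lines were not shown to differ (0.17, adjusted p = 0.076 by the same edgeR test). *Tbx3*, which is needed to form the mammary placode, had values of -0.41 and -0.51, both past the p threshold and under the limit. *Tbx18* was at -0.26 in *KD1* and 0.72 in *KD2*, and 20.6% of its exon bases overlap another gene.

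Some members that were too rare to be tested still had counts in 1 or 2 groups only. *Tbx20* had 12, 11 and 8 counts in *WT*, 0 in each *KD1* culture and 0, 0 and 1 in *KD2*, at least 12.3-fold lower in *KD1*, taking the floor as 3 counts over the group. Bounds of this kind, here and below, leave out the counting error of the group with counts, so the true difference could be smaller. *Sox7*, a SOXF factor of endothelium, had 0, 1 and 0 counts in *WT*, 7, 15 and 12 in *KD1*, and 0 in every *KD2* culture, so *KD2* was at least 11.0-fold lower than *KD1*. The summed level of 3 endothelial markers was 2.00 to 2.49 CPM in *WT*, 4.87 to 5.46 in *KD1* and 1.33 to 1.82 in *KD2*. Single markers went different ways: *Pecam1* had means of 2.16, 4.90 and 0.918 CPM in *WT*, *KD1* and *KD2*, while *Cdh5* had 0, 0 and 1 counts in *WT*, 5, 7 and 5 in *KD1*, and 22, 24 and 7 in *KD2*. Their part in the counts of *Sox7* was not tested. *Sox12*, the third SOXC gene, had 5, 11 and 2 counts in *WT* and a single count in *KD1*, and was at 0 in *KD2*, at least 6.93-fold lower. *Tbx22* had 3, 8 and 1 counts in *WT* and none in either line. *Sox15* had 3, 2 and 1 counts in *WT* against 12, 9 and 12 in *KD1*. *Gata2* did not exceed 11 counts in any culture.

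Members lay within 200 kb of each other in 15 pairs. Both genes of a pair were tested in 2 of these, among them *Dlx5* with *Dlx6*, while 5 pairs had 1 tested gene and 8 had none. *Dlx5* and *Dlx6* fell together in *KD1*.

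In *KD2* some chromosomes lay below *WT* as a whole, and several members are on them. The median log2 fold change over the 590 genes tested on chromosome 13 was -0.66, and that chromosome carries *Sox4*, *Pitx1*, *Msx2*, *Irx1* and *Irx2*. It was -0.47 over the 494 genes of chromosome 14, which carries *Sox21*, and -0.20 over the 1040 genes of chromosome 5, which carries *Msx1*. Relative to these medians, *Pitx1* was at -0.49, *Sox21* at -0.97, *Msx1* at -0.83 and *Sox4* at -0.33. The other members on chromosome 13 were at -0.17 (*Msx2*), 0.59 (*Irx1*) and 0.27 (*Irx2*). None of these values passed the limit. Centred in this way, 2 members instead of 5 were called lower in *KD2*, *Sox13* and *Sox5*. Only the fold change was centred, and the adjusted p stayed that of the uncentred test. The calls for higher members in *KD2* stayed at 7. In *KD1* no chromosome that carries a member had a median beyond 0.27 in either direction, and the counts of calls were as before. The share of all genes called was not computed after centring.

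**Figure D4:**
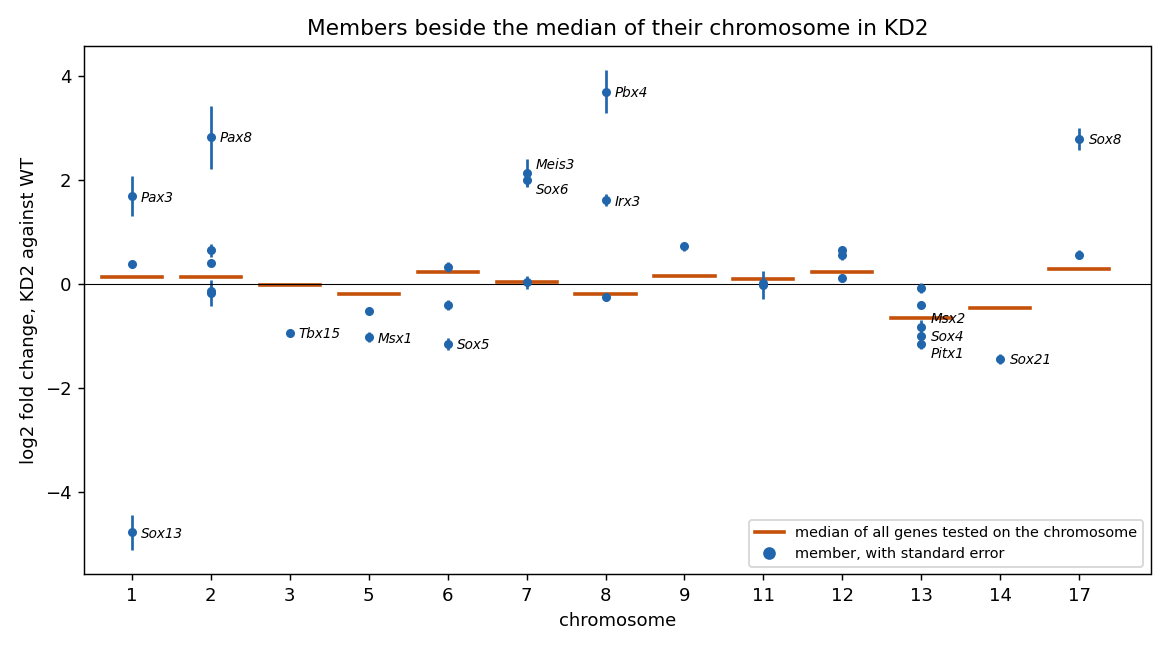
Log2 fold change in *KD2* against *WT* of each tested member (blue, with standard error) by chromosome, beside the median of all genes tested on that chromosome (orange bars). *Pitx1*, *Sox4* and *Msx2* on chromosome 13 and *Sox21* on chromosome 14 lie below medians of -0.66 and -0.47, while *Sox13*, *Sox5*, *Sox6*, *Sox8*, *Irx3* and *Pbx4* lie far from the medians of theirs. *Irx1* and *Irx2*, also on chromosome 13, lie above its median.

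Some genes used as markers of other cell types differed between the groups, which does not show that such cells were present. The summed level of 6 fibroblast markers was 16.4 to 22.1 CPM in *WT*, 7.98 to 9.96 in *KD1* and 25.8 to 27.3 in *KD2*, with 4, 2 and 5 of the markers above the floor. Of these, *Col1a2* was at 0 in *KD1* and *Col3a1* had 1 count there, while *Dcn* and *Lum* were at or near the floor throughout. The sum stood in the same order as *Sox6*, *Sox8*, *Irx3* and *Pax3*, but the single markers differed: *Col1a1* had means of 7.03, 0.571 and 4.37 CPM in *WT*, *KD1* and *KD2*, *Col3a1* of 3.03, 0.0131 and 2.72, and *Pdgfra* of 7.95, 8.39 and 16.4. Their part in the differences of these factors was not tested. Summed basal markers were 3567 to 4009 CPM in *WT*, 3849 to 3950 in *KD1* and 1793 to 2283 in *KD2*, and summed luminal markers 1433 to 1571, 1920 to 1988 and 1182 to 1370. Single luminal markers went different ways in *KD2*. Means in *WT*, *KD1* and *KD2* were 157, 177 and 268 CPM for *Krt8* and 124, 204 and 136 for *Krt18*. They were 551, 681 and 428 for *Epcam* and 691, 895 and 428 for *Cdh1*. The leukocyte marker *Ptprc* was at or under the floor in every culture, as were *Adgre1* and *Cd3e*, but the macrophage marker *Cd68* was at means of 4.10 CPM in *WT*, 7.55 in *KD1* and 4.02 in *KD2* (log2 fold change 0.89 in *KD1*, adjusted p = 0.0016 by edgeR's quasi-likelihood test). Its part in the members that were highest or lowest in *KD1* was not tested. In these bulk samples, fewer cells that express a factor and less RNA of it per cell cannot be told apart.

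Partners of the factors, a list of 29 genes in the table, were tested in 22 cases: 1 rose and 8 fell in *KD1* (median log2 fold change -0.47), where 9.34% and 7.49% of all genes did. In *KD2*, 3 rose and 3 fell (-0.16; background 14.5% and 6.71%), and 6 were higher and none lower in *KD2* than in *KD1* (background 14.7% and 8.58%). The EYA phosphatases, which give the sine oculis homologues their activating function, held 3 calls in *KD1* and 3 in *KD2* among 4 tested (16.8% and 21.2% of all genes, either way). *Eya1* was at 2.35 ± 0.458 CPM in *WT*, at 0 in every *KD1* culture, at least 61.1-fold lower, and at 0.530 ± 0.123 in *KD2*, 4.32-fold lower (adjusted p = 1.5e-05 by edgeR's quasi-likelihood test). *Eya4* fell 21.3-fold in *KD1*, from 26.0 ± 1.53 to 1.22 ± 0.0345 CPM (adjusted p = 5.2e-12), and rose 2.64-fold in *KD2*, to 68.6 ± 8.74 (adjusted p = 9.1e-09). *Eya2* fell in both lines, 12.9-fold and 4.15-fold, and *Eya3* was not called.

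*Lmo1*, a LIM-only protein of the LHX and GATA complexes, was at 3.10 ± 0.427 CPM in *WT* and at 0 in all 6 cultures of the lines, at least 79.3-fold lower in the first and 77.0-fold in the second. *Lmo1* passed the filter through *WT* only, so the filter itself favoured its calls, which are among those of the partner list. *Zfpm2*, a GATA partner, rose in both lines, 6.04-fold and 3.20-fold (adjusted p = 2.4e-10 and 3.8e-08). *Tle2*, a Groucho-type corepressor, fell 9.13-fold in *KD1* (adjusted p = 2.7e-05) and rose 3.74-fold in *KD2* (adjusted p = 1.3e-05, edgeR's quasi-likelihood test throughout). *Tle6* fell 3.75-fold in *KD1* (adjusted p = 6.1e-05), was at 0.58 on the log2 scale in *KD2*, which was not called, and was 5.59-fold higher in *KD2* than in *KD1* (adjusted p = 1.7e-06, the same edgeR test). *Tle1*, *Tle3* and *Tle5* were not called.

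**Figure D5:**
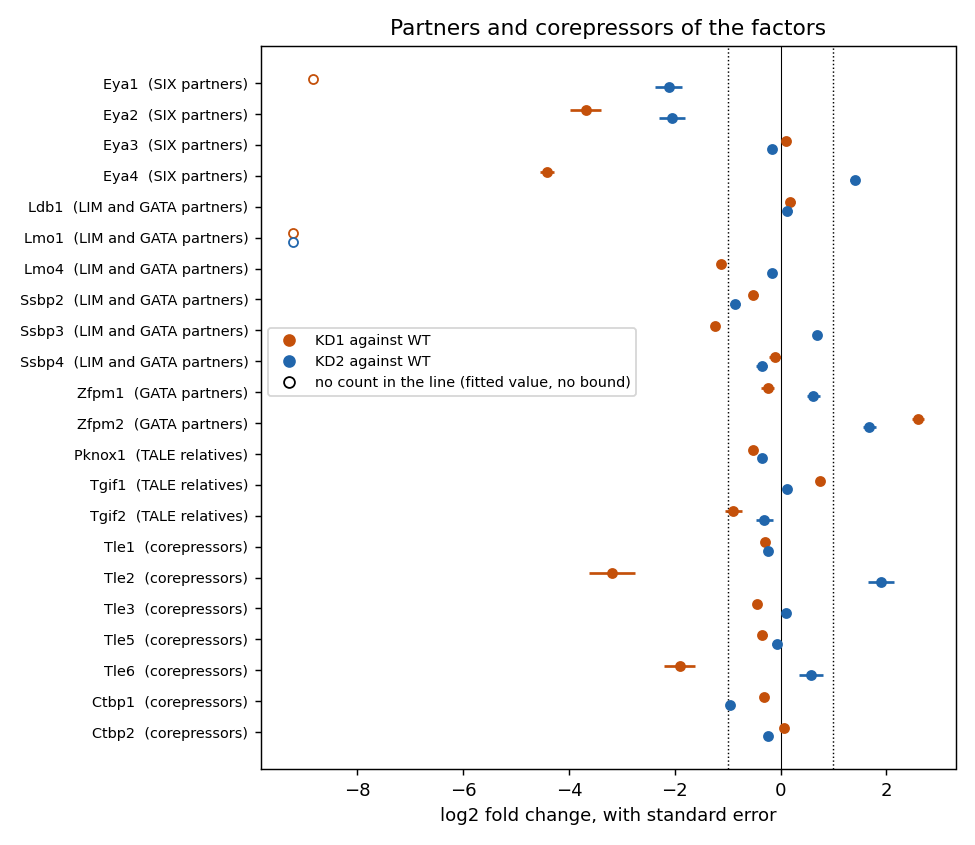
Log2 fold change with standard error in *KD1* (orange) and *KD2* (blue) against *WT* for the 22 tested partner and corepressor genes; open circles are fitted values of genes with no count in a line, which are not bounds. *Eya1*, *Eya2* and *Lmo1* lie below -1 in both lines, *Zfpm2* above 1 in both, and *Eya4* and *Tle2* on opposite sides.

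Of 18 signalling genes of the mammary placode, where *Tbx3* and the *Msx* genes act, 7 were tested: 1 rose and 3 fell in *KD1* (9.34% and 7.49% of all genes), and none rose and 2 fell in *KD2* (14.5% and 6.71%). *Sostdc1*, a secreted WNT and BMP antagonist, was at 27.6 ± 4.56 CPM in *WT* and nearly absent from both lines, 700-fold lower in *KD2* by counts (exact interval 239 to 3397) and 334-fold lower in *KD1* (adjusted p = 5.1e-12 by edgeR's quasi-likelihood test). *Sostdc1* passed the filter through *WT* only, so the filter itself favoured its calls, which are among those of the placode list. *Fgfr2* fell 9.13-fold in *KD1* and 3.81-fold in *KD2* (adjusted p = 5.6e-11 and 4.5e-09). *Wnt6* fell 4.15-fold and *Pthlh* rose 2.29-fold in *KD1*, and neither was called in *KD2*. The excluded *Gata3*, a luminal factor, rose 2.32-fold in *KD1*, from 43.5 ± 4.06 to 101 ± 2.73 CPM (adjusted p = 3.1e-09), and was at 0.34 on the log2 scale in *KD2*. *Sox10* was at 0 in every culture.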

How the data were processed

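The deposited table holds whole-number read counts for each gene, which the authors had not normalized. Per the labels and the study's methods, reads had been trimmed and filtered with fastp, mapped to GRCm38 with HISAT2 and counted over exons with featureCounts; whether strand was used was not given in the sources used here. Columns of the table were matched to cultures by name, and 0 were left over.

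The members and gene lists were chosen with earlier results of these data known. All 9 cultures entered 1 fit in edgeR 4.0.16 (R 4.3.3) with TMM scaling, the edgeR expression filter, no block and the quasi-likelihood test, with Benjamini-Hochberg adjustment over 15253 genes. Calls needed an adjusted p under 0.05 together with a change beyond 2-fold. The script was tested on simulated data. CPM used the TMM-adjusted library size. Standard errors are the log2 fold change divided by the root of its F value, where both groups had counts. Groups with 1 to 3 counts in all are given as ratios with exact 95% intervals, from counts pooled over the cultures. Groups with none are given as bounds at 3 counts over the group. Such bounds take the counts of the other group as exact. Exon lengths, positions and overlaps came from a GENCODE annotation of GRCm38, which held all 97 members, and promoter sequences from RefSeq (GRCm38.p6).

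Members named are those called in any comparison and the most abundant tested member of each family, 24 in all, with full values for the 10 of largest change; from the partner and placode lists, up to 4 called genes each with the largest change. Some genes that these rules name are not reported here. Members at counts of 0 and other genes given as examples or as exceptions were named after their values were seen. Same-numbered cultures did not deviate together (mean r 0.00116 over 9 pairs, from -0.0652 to 0.0789), so no pairing was used. Alternatives were other scalings and filters, DESeq2 1.42.0, the 6 cultures compared, other thresholds, the replicate block, each culture left out, and centring on chromosome medians, which was chosen after seeing the data. Centring shifted the fold change and kept the adjusted p of the uncentred test.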

Additional observations from a re-analysis of the deposited data

Results flagged for a closer look

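The members below differed between the lines by the direct test of *KD2* against *KD1* (edgeR's quasi-likelihood test), so the change against *WT* was not the same in both lines. *KD2* was higher, on the log2 scale, by 6.78 in *Sox8*, 5.59 in *Sox6* and 5.56 in *Pax3*, of which *Sox8* and *Pax3* rest on 3 counts and 1 count in *KD1*. It was higher by 3.08 in *Dlx6*, 2.93 in *Irx3*, 2.94 in *Meis3* and 2.72 in *Dlx5*. The difference was 1.84 in *Pbx4*, which was higher than *WT* in both lines, 1.80 in *Dlx4*, 1.38 in *Sox11* and 1.37 in *Pax8*. *KD2* was lower in *Meis1* (-2.61), *Sox5* (-1.82), *Pitx1* (-1.40) and *Sox21* (-1.03). The last 2 lie on chromosomes whose medians between the lines were -0.61 and -0.47.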

How the results depend on the processing

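The 38 called values of members were recomputed 590 times, under other scalings, filters and tests, the block, the 6 cultures compared and single cultures left out. Of these, 581 stayed called in the same direction, 9 lost the call and 0 reversed. Not among them are 17 values that could not be tested with at least 10 counts in every culture, 1 that could not be in the 6 cultures compared, and centring on chromosome medians, an alternative added after seeing the data, which put 5 values under the limit: *Msx1* (-0.83), *Pitx1* (-0.49) and *Sox21* (-0.97) in *KD2*, and *Pitx1* (-0.79) and *Sox21* (-0.56) between the lines. *Msx1* in *KD2* lost it with library size alone (-0.92), at least 10 counts in every culture (-0.98) and 3 single cultures left out (-0.966 to -0.998). *Sox21* between the lines lost it with library size alone (-0.90), at least 10 counts (-0.995) and without the second *KD1* culture (-0.98), and *Pax8* between the lines without the third *KD1* culture (1.09). *Sox4* in *KD2* passed the limit in 6 alternatives. Leaving out 1 culture moved 7 called values by over 1.5-fold, all away from 0 and still called: those of *Pax3* in *KD1* (-3.87 to -5.68) and between the lines (5.56 to 7.36) and of *Sox13* in *KD1* (-6.56 to -7.41) without the third *KD1* culture, those of *Sox8* in *KD1* (-3.98 to -4.79) and between the lines (6.78 to 7.58) without the first, *Sox13* in *KD2* without its second culture and *Pax8* in *KD2* without the third *WT* culture.

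Counts of calls moved mostly with the filter and the fold limit. The share of all genes called was computed for the main results only, so the counts in this section have no background beside them. With at least 1 count in any culture, 5 members were higher in *KD1*, 11 lower in *KD2* and 6 changed the same way. With at least 10 counts in every culture, which removes rare members, 1 was higher and 5 lower in *KD1*, 2 higher and 3 lower in *KD2*, 6 higher in *KD2* than *KD1*, 0 the same way and 2 opposite. With no limit on the fold change, the counts were 5 and 20 in *KD1*, 15 and 12 in *KD2*, 19 and 8 between the lines, 10 the same way and 10 opposite. Centred on chromosome medians, 2 were lower in *KD2* and 2 lower in *KD2* than *KD1*. *Irx1*, on chromosome 13, went the other way: centring moved its value between the lines from 0.79 to 1.41, past the limit. Leaving out 1 culture gave 2 to 5 higher and 9 to 11 lower in *KD1*, 7 higher and 5 to 8 lower in *KD2*, 11 to 12 higher and 4 to 6 lower between the lines, 2 to 4 the same way and 4 opposite. The count of 2 higher in *KD1* became 5 without the third *WT* culture and 4 without the first or second *WT* culture or any 1 *KD2* culture; 8 were lower in *KD2* without its first culture, and 4 the same way without the third *WT* culture or the first or the third *KD2* culture.

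The replicate block left each count as it was, with 2 higher and 9 lower in *KD1*, 7 and 5 in *KD2*, 11 and 4 between the lines, 2 the same way and 4 opposite. The numbers were not shown to pair the cultures.

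Values near 0 that were not called changed sign in places. *Dlx4* in *KD2* became 0.090 and *Irx1* in *KD2* 0.039 with library size alone, *Meis1* in *KD2* -0.017 with at least 1 count, and *Lmo1*, with no count in either line, 0.023 between them under the block. With 1 culture left out, the range was -0.24 to 0.30 for *Dlx4*, -0.19 to 0.0018 for *Irx1* and -0.022 to 0.066 for *Meis1* in *KD2*, and -0.071 to 0.014 for *Sox4* in *KD1*. The depth limits rare members most: 50 of the 97 had at most 3 counts in every culture.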

Other observations

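Relatives of these factors whose symbols the rule did not match gave 9 tested genes of 24 listed. In *KD1*, 1 was called higher and 3 lower (9.34% and 7.49% of all genes), in *KD2* 1 higher and 1 lower (14.5% and 6.71%), and between the lines 3 were higher and 2 lower in *KD2* (14.7% and 8.58%). *Barx2*, a homeobox gene of epithelium and muscle, fell 178-fold in *KD1*, from 14.7 ± 2.28 to 0.0784 ± 0.0405 CPM (SD, 3 cultures each), and was at 12.8 ± 1.48 in *KD2* (adjusted p = 1.9e-11 and 0.14, edgeR's quasi-likelihood test). *Prrx1*, a homeobox gene of mesenchyme, fell 13.7-fold in *KD2*, from 6.82 ± 1.37 to 0.460 ± 0.248 CPM (adjusted p = 1.9e-08), and was at 11.5 ± 0.972 in *KD1*. *Lmx1b* and *Alx1* fell 3.55-fold and 3.70-fold in *KD1* and were not called in *KD2* (0.12 and 0.22 on the log2 scale). These genes were named after their values were seen.

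Summed markers of each cell type outside the epithelium were below the summed luminal and basal markers. The summed neural markers, mostly *Tubb3*, were 15.4 to 17.3 CPM in *WT*, 22.9 to 24.4 in *KD1* and 6.30 to 7.47 in *KD2*. *Tubb3* was called 2.55-fold lower in *KD2* than in *WT* (adjusted p = 1.2e-08 by edgeR's quasi-likelihood test). The muscle marker *Des*, with 1, 0 and 3 counts in *WT*, was called 31.5-fold higher in *KD2* (adjusted p = 2.1e-07, the same edgeR test). *Des* passed the filter through *KD2* only, so the filter itself favoured a difference. Both adipocyte markers were at or under the floor.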
